A study of Mus musculus with 12 samples.

Results

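The genes described here are 10 genes of the response to oxidants and metals: the metallothioneins Mt1 and Mt2 and the NRF2-linked genes Nqo1, Hmox1, Gclc, Gclm, Srxn1, Txnrd1, Slc7a11 and G6pdx. They were chosen by name, with earlier results of these data known. All 10 were found among the 53599 genes of the count table and among the 14798 that passed the filter on low counts. They were measured by RNA-seq in 12 cultures of mouse liver cells, 3 for each of 4 groups. The starting cells were hepatocytes for hepCLiP and biliary epithelial cells (BEC) for bilCLiP. The 2D groups grew on collagen-coated plates in a medium for small hepatocytes (SHM) that held 10% serum and the compounds Y-27632, A83-01 and CHIR99021. In the 3D groups spheroids of these cells formed over 3 days in microwells without serum and then floated for 6 to 8 days with the same compounds and oncostatin M at 10 ng/ml. Y-27632, A83-01 and CHIR99021 were thus present in all 4 groups, while spheroid form, serum and oncostatin M changed together and cannot be told apart. Genotype was RosaYFP in all bilCLiP cultures and in hepCLiP replicate 2, and RosaConfetti in hepCLiP replicates 1 and 3.

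Titles set the groups, and 4 treatment tags go against them: that of hepCLiP 2D replicate 3 names 3D culture, and those of all 3 bilCLiP 3D samples name 2D. For the first of these libraries, Pearson's r of log2 levels across genes was 0.96 to 0.968 against its labelled group and 0.836 to 0.867 against hepCLiP 3D. Libraries held 16142365 to 21253382 counts. The summed level of 7 hepatocyte markers was 342 to 1688 CPM (counts scaled to library size) in hepCLiP 2D and 42386 to 53175 in hepCLiP 3D, and 180 to 1043 in bilCLiP 2D and 18302 to 43747 in bilCLiP 3D. Levels of 7 biliary markers summed to 3187 to 5942 CPM in hepCLiP 2D, 11321 to 15668 in hepCLiP 3D, 5483 to 10408 in bilCLiP 2D and 13639 to 33326 in bilCLiP 3D, with Cftr at 0 in hepCLiP 3D. Of 5 mesothelial markers, Msln lay at 333 to 989 CPM in 2D hepCLiP and 545 to 867 in 2D bilCLiP, against 5.42 to 25.8 and 7.97 to 27.8 in 3D, while Upk3b, Upk1b, Wt1 and Lrrn4 were at or below 0.82 CPM in every library. The part of these shifts in the culture results below was not tested. Macrophage and leukocyte markers, 7 genes, summed to 4.13 to 19.5 CPM over all groups, and 6 endothelial markers to 0.0659 to 3.7. Fibroblast and stellate markers, 9 genes, summed to 0.155 to 19.5 CPM in the bilCLiP groups. In hepCLiP 3D replicate 1 they reached 285 CPM, of which Dcn made 282, and Col1a1 was at 1.17.

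NRF2, the product of Nfe2l2, is a transcription factor that KEAP1 holds at low levels by marking it for degradation. Oxidants and electrophiles disable KEAP1, NRF2 then enters the nucleus with a small MAF partner, and the pair binds antioxidant response elements (ARE) near genes of glutathione synthesis, thioredoxin recycling, NADPH supply and heme breakdown. Metallothioneins are small cysteine-rich proteins that bind zinc and copper, are abundant in liver, and are switched on through metal response elements (MRE) by the zinc-sensing factor MTF1 and by hormones and cytokines.

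Promoter windows of 300 bases, 250 before and 50 after a start site, were taken from RefSeq on GRCm38.p6 for 8 of the 10 genes. Hmox1 and Gclc had no entry. The MRE was searched as TGCACNC or TGCGCNC on both strands, and at least 1 match was present in 25.7% of all 32851 windows. Mt1 had 3 matches, a number reached by 1.97% of windows, and Mt2 had 4, reached by 0.517%. Gclm also had 3, G6pdx had 2 (reached by 7.11%) and Srxn1 had 1, while Nqo1, Slc7a11 and Txnrd1 had none. The Mt1 and Mt2 windows are shown because these genes had the largest rises, with the MRE matches in capitals. The Mt1 window lies at chr8:94178839-94179138 and the Mt2 window at chr8:94172368-94172667, both on the plus strand and spanning the start site of each gene.
Mt1: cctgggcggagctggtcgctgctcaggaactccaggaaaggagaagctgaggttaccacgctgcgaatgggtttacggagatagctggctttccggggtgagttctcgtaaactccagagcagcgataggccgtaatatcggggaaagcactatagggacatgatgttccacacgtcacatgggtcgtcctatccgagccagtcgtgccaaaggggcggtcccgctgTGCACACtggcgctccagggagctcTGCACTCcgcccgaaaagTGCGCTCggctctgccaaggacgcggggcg
Mt2: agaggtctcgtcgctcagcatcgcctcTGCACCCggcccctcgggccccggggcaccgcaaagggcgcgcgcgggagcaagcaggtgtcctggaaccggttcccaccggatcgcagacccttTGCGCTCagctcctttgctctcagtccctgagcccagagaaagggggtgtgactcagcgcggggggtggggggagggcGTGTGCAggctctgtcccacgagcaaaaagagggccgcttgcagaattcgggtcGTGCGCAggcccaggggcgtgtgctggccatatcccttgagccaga
The ARE was searched as TGACNNNGC on both strands, and 12.4% of all windows held it. Windows of Gclm, Srxn1, Txnrd1 and G6pdx each had 1 match, as did Mt2, and those of Nqo1, Slc7a11 and Mt1 had none. For both elements, sites outside the windows or with other letters were not searched, so no match does not mean no element. The Srxn1 window also holds TGAGTCAGC before the start site, which the pattern does not match. Txnrd1 has 3 windows, of which 1 held the match. The matches are shown with 10 bases on each side, on the strand of the gene, to place the NRF2-linked genes that fell beside those that did not. Capitals mark the match to the pattern, which reads on the opposite strand in all 4. The Gclm match (chr3:122245413-122245441) began 134 bases before the start site, the Txnrd1 match (chr10:82859104-82859132) 92 bases before, the G6pdx match (chrX:74428919-74428947, minus strand) 57 bases before, and the Srxn1 match (chr2:152105542-152105570) 28 bases after.
Gclm: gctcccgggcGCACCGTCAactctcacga
Txnrd1: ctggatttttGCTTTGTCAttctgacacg
G6pdx: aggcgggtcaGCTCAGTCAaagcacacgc
Srxn1: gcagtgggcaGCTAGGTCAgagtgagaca

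The metallothioneins rose in 3D in both origins. Mt1, which binds zinc and copper, stood at 268, 358 and 208 CPM in the 3 hepCLiP 2D libraries and at 2051, 3951 and 2265 CPM in hepCLiP 3D. In bilCLiP it was 224, 339 and 312 CPM in 2D and 1465, 2778 and 2807 CPM in 3D. Every 3D library was above every 2D library, and the 2 origins overlapped in both cultures. The rise was 9.91-fold in hepCLiP (log2 fold change 3.31 ± 0.373 SE, adjusted p = 0.000175) and 8.05-fold in bilCLiP (3.01 ± 0.368, adjusted p = 0.000281; edgeR's quasi-likelihood test with Benjamini-Hochberg adjustment over all genes tested, n = 3 per group). By number of counts, Mt1 ranked 354 to 769 among all genes in hepCLiP 2D and 34 to 50 in hepCLiP 3D.

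Mt2, its neighbour on chromosome 8 and a closely related protein, was counted far less. Its level was 1.25, 0.955 and 0.599 CPM in hepCLiP 2D and 14.1, 29.9 and 4.93 CPM in hepCLiP 3D. The bilCLiP libraries had 0.301, 0.389 and 0.729 CPM in 2D and 2.5, 5.45 and 5.22 CPM in 3D. No 3D library fell within the 2D range of its origin. The log2 rise was 4.11 ± 0.666 in hepCLiP (adjusted p = 0.00109) and 3.21 ± 0.661 in bilCLiP (adjusted p = 0.00464). These values rest on 7 to 422 counts per library. Mt1 gave 132 to 459 counts for each Mt2 count in hepCLiP 3D and 509 to 585 in bilCLiP 3D. Per kilobase of annotated exon, Mt1 stood at 2212 ± 835 CPM (SD, n = 3) in hepCLiP 3D and Mt2 at 27.7 ± 21.5. The low level of Mt2 is uncertain, because the sources used here do not say how reads shared by the 2 paralogs were counted or whether strand was used. An exon of Mt2 overlaps Gm45774 on the opposite strand, which had 0 to 50 counts.

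**Figure D1:**
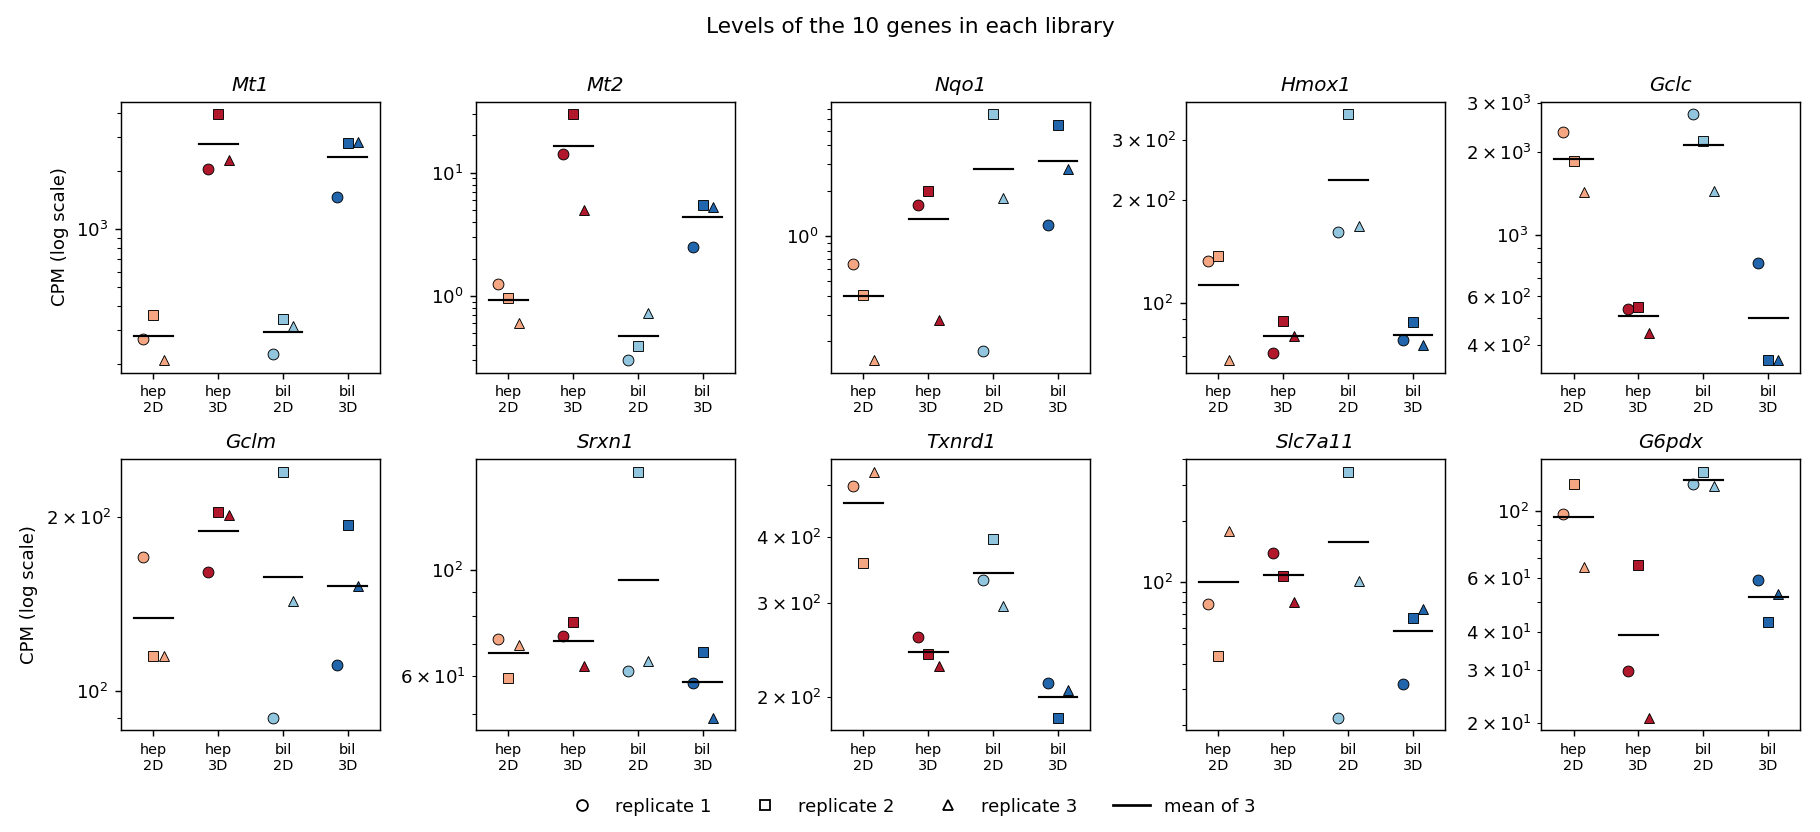
Level of each of the 10 genes in each of the 12 libraries, in CPM on a log axis, with a panel per gene and its own scale, symbols for the replicate numbers and a bar at the mean of 3. Mt1 and Mt2 are higher in every 3D library than in every 2D library of the same origin, Gclc and Txnrd1 are lower, and bilCLiP 2D replicate 2 (square) tops 6 of the 10 panels.

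Glutathione synthesis showed unequal changes in its rate-limiting enzyme. Gclc, the catalytic subunit of glutamate-cysteine ligase, was at 2356, 1851 and 1430 CPM in hepCLiP 2D and 540, 548 and 444 CPM in hepCLiP 3D. In bilCLiP it was at 2742, 2185 and 1448 CPM in 2D and 796, 353 and 355 CPM in 3D. The cultures did not overlap in either origin, and in 2D the gene ranked 7 to 35 among all genes by counts. Gclc fell by 1.88 ± 0.363 on the log2 scale in hepCLiP (adjusted p = 0.00277) and by 2.08 ± 0.365 in bilCLiP (adjusted p = 0.00195).

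Gclm, the modifier subunit that raises the efficiency of GCLC, was at 171, 115 and 115 CPM in hepCLiP 2D and 161, 204 and 202 CPM in hepCLiP 3D. Its bilCLiP levels were 89.9, 240 and 143 CPM in 2D and 111, 194 and 152 CPM in 3D. The cultures overlapped in both origins, with log2 differences of 0.50 ± 0.33 (adjusted p = 0.265) and -0.05 (adjusted p = 0.922). Per kilobase of exon, Gclc was at 499 ± 123 CPM and Gclm at 21.2 ± 5.14 in hepCLiP 2D, against 136 ± 15.4 and 30 ± 3.86 in hepCLiP 3D (SD, n = 3). Gclc counts per Gclm count were 12.5 to 16.2 in hepCLiP 2D and 2.2 to 3.36 in hepCLiP 3D. In bilCLiP these ratios were 9.12 to 30.5 in 2D and 1.82 to 7.21 in 3D, again without overlap.

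Slc7a11, the cystine importer that feeds glutathione synthesis, varied most within groups. It was at 78.6, 43.7 and 178 CPM in hepCLiP 2D and 140, 107 and 79.8 CPM in hepCLiP 3D. The bilCLiP libraries gave 21.7, 349 and 102 CPM in 2D and 31.9, 66.8 and 73.9 CPM in 3D. Both pairs of cultures overlapped, and replicate 2 of bilCLiP 2D was the highest of all 12 libraries. Log2 differences were 0.12 ± 0.792 in hepCLiP (adjusted p = 0.922) and -1.45 ± 0.808 in bilCLiP (adjusted p = 0.202). Without bilCLiP 2D replicate 1 the bilCLiP value was -1.97 (adjusted p = 0.0481), and without replicate 2 it was -0.10 (adjusted p = 0.935). Its SD of log2(CPM + 1) within groups was 1.17, above that of 98.2% of the genes tested, whose median was 0.272.

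Among the thioredoxin genes, Txnrd1 fell and Srxn1 did not pass the test. Txnrd1, the cytosolic selenoenzyme that recycles thioredoxin with NADPH, was at 498, 357 and 530 CPM in hepCLiP 2D and 260, 241 and 229 CPM in hepCLiP 3D. The bilCLiP values were 332, 396 and 296 CPM in 2D and 213, 183 and 206 CPM in 3D. The cultures did not overlap in either origin. Txnrd1 fell by 0.92 ± 0.172 on the log2 scale in hepCLiP (adjusted p = 0.0023) and by 0.77 ± 0.172 in bilCLiP (adjusted p = 0.00708). Its spread within groups was low, with an SD of 0.199 in log2(CPM + 1).

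Srxn1, sulfiredoxin, which restores overoxidised peroxiredoxins, was at 71.7, 59.5 and 69.7 CPM in hepCLiP 2D and 72.7, 77.7 and 63 CPM in hepCLiP 3D. It was at 61.5, 160 and 64.6 CPM in bilCLiP 2D and 58.2, 67.5 and 49.2 CPM in bilCLiP 3D. All pairs of cultures overlapped, and the 160 CPM came from bilCLiP 2D replicate 2. Log2 differences were 0.09 (adjusted p = 0.857) and -0.71 ± 0.317 (adjusted p = 0.116). Left without bilCLiP 2D replicate 1, the latter passed at -0.94 (adjusted p = 0.0489), and without replicate 2 it was -0.11 (adjusted p = 0.665).

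G6pdx, the first enzyme of the pentose phosphate pathway and a source of NADPH, fell in 3D. Levels were 97.5, 123 and 65.5 CPM in hepCLiP 2D and 29.6, 66.5 and 20.8 CPM in hepCLiP 3D. In bilCLiP they were 123, 135 and 121 CPM in 2D and 59.3, 43.2 and 53.3 CPM in 3D. The hepCLiP cultures overlapped by 1 library on each side, and the bilCLiP cultures did not overlap. G6pdx fell by 1.29 ± 0.372 on the log2 scale in hepCLiP (adjusted p = 0.0209) and by 1.28 ± 0.371 in bilCLiP (adjusted p = 0.024). The hepCLiP call was lost when 2D replicate 2 (-1.06) or 3D replicate 1 (-1.05) or 3 (-0.98) was left out, and with only the 2 groups compared in the fit (-1.27, adjusted p = 0.072). The bilCLiP call was lost when 2D replicate 2 (-1.23) or 3D replicate 2 (-1.16) or 3 (-1.30) was left out, with adjusted p up to 0.0931 and 0.0907. Exons of G6pdx overlap Ikbkg on the opposite strand, which had 1692 to 3087 counts.

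Hmox1, the enzyme that opens heme to biliverdin, iron and carbon monoxide, was at 133, 138 and 68.2 CPM in hepCLiP 2D and 71.7, 88.9 and 80.3 CPM in hepCLiP 3D. Its bilCLiP levels were 162, 358 and 168 CPM in 2D and 78.2, 88.2 and 75.5 CPM in 3D. The bilCLiP cultures did not overlap, and hepCLiP 2D replicate 3 was below all 3D libraries. Hmox1 fell by 1.51 ± 0.331 on the log2 scale in bilCLiP (adjusted p = 0.00638), or by 1.03 without bilCLiP 2D replicate 2 (adjusted p = 0.0185). In hepCLiP the value was -0.49 ± 0.325 (adjusted p = 0.266). The difference between these 2 effects was -1.02 ± 0.459, with an adjusted p of 1 in edgeR's test.

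Nqo1, a quinone reductase often used as a readout of NRF2, was hardly counted, with 3 to 166 counts per library. It was at 0.648, 0.409 and 0.15 CPM in hepCLiP 2D and 1.61, 1.99 and 0.278 CPM in hepCLiP 3D. In bilCLiP it was at 0.172, 6.45 and 1.78 CPM in 2D and 1.19, 5.45 and 2.78 CPM in 3D. The cultures overlapped in both origins. Log2 differences were 1.66 ± 1.13 (adjusted p = 0.281) and 0.16 (adjusted p = 0.923).

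In all, 5 of the 10 genes passed the test in hepCLiP, 2 higher and 3 lower in 3D, beside 34.7% of all genes tested (16.9% higher and 17.9% lower). In bilCLiP 6 passed, 2 higher and 4 lower, beside 30.3% (15.8% higher and 14.5% lower). The cultures did not overlap for 4 genes in hepCLiP and 6 in bilCLiP, beside 46.9% and 49.1% of all genes. Median log2 differences of the 10 genes were 0.10 in hepCLiP and -0.74 in bilCLiP, against -0.06 and 0.00 over all genes. With only the RosaYFP cultures, which leave 1 hepCLiP library per culture assumed to vary like the other groups, 2 genes passed in hepCLiP, Mt1 and Mt2. Gclc was then at -1.76 (adjusted p = 0.197), Txnrd1 at -0.57 (adjusted p = 0.248) and G6pdx at -0.88 (adjusted p = 0.0904). In bulk RNA, fewer cells of a type and less RNA per cell cannot be told apart.

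**Figure D2:**
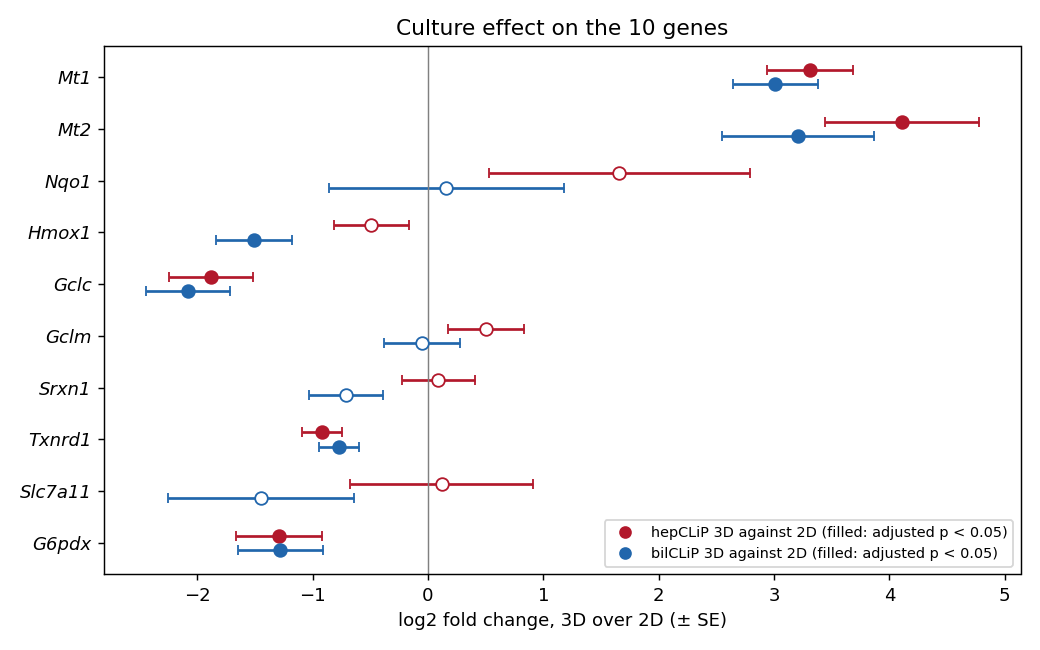
Log2 fold change of 3D over 2D for each of the 10 genes, with its SE as a bar, for hepCLiP (red) and bilCLiP (blue). Filled points passed the test: Mt1 and Mt2 lie to the right in both origins, Gclc, Txnrd1 and G6pdx to the left, and Hmox1 is filled in bilCLiP.

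Between origins, none of the 10 genes passed the test in either culture. In 2D, 0 of 10 were called by edgeR, beside 0.135% of all genes, and 0 by DESeq2, beside 459 genes. In edgeR 3 of 10 had an unadjusted p under 0.05, beside 2146 of the 14798 genes tested. These 3 were Hmox1 (log2 difference of bilCLiP over hepCLiP 1.02 ± 0.326, adjusted p = 0.229), Txnrd1 (-0.44 ± 0.171, adjusted p = 0.289) and Nqo1 (2.78 ± 1.13, adjusted p = 0.307). Hmox1 alone had groups without overlap, beside 21% of all genes, and its value was 0.54 without bilCLiP 2D replicate 2.

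In 3D, 0 of 10 were called by edgeR, beside 0.101% of all genes, and 1 by DESeq2, beside 577 genes. In edgeR 1 of 10 had an unadjusted p under 0.05, beside 2461 of the 14798 genes tested. In both tools the gene was Mt2, lower in bilCLiP at -1.89 ± 0.599 (edgeR, adjusted p = 0.195) and at -1.92 in DESeq2 (adjusted p = 0.0365). Groups did not overlap for Txnrd1 and Slc7a11, beside 21.8% of all genes, with log2 differences of -0.28 ± 0.171 (adjusted p = 0.426) and -0.92 ± 0.8 (adjusted p = 0.581). Mt1 differed by 0.07 ± 0.341 in 2D and by -0.23 ± 0.341 in 3D, and Gclc by 0.18 ± 0.351 and -0.03 ± 0.351.

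The culture effects were also compared between origins. By edgeR 0 of 10 genes differed, beside 0% of all genes, and 0 by DESeq2, beside 12 genes. In edgeR 1 of 10 (Hmox1) had an unadjusted p under 0.05, beside 532 of the 14798 genes tested. Differences ran from -1.57 ± 1.13 for Slc7a11 to 0.16 ± 0.242 for Txnrd1.

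One library stood apart for these genes, a pattern seen in the values and described without a test. bilCLiP 2D replicate 2 was the highest of all 12 libraries for Nqo1, Hmox1, Gclm, Srxn1, Slc7a11 and G6pdx, 6 of 10 genes, beside 8.39% of all genes tested. Within bilCLiP 2D it was the highest for 8 of 10, beside 35.6% of all genes. Over the 8 lists described below, some of which have genes in common, this share was lowest for the zinc handling genes, at 37.5% (3 of 8). It was 42.3% for the antioxidant enzymes (11 of 26) and 76.7% for the other NRF2 targets (23 of 30). The highest was 78.6% for the ATF4 list (11 of 14), which holds Atf4 itself. Over all 12 libraries, bilCLiP 2D replicate 2 was the highest for 8 of 30 other NRF2 targets and 5 of 14 genes of the ATF4 list. The hepCLiP 3D replicate 2 library was the highest for equally many of each. Within bilCLiP 2D, the log2 ratio of the CPM of replicate 2 to the mean of replicates 1 and 3 was 2.73 for Nqo1 and 2.50 for Slc7a11. It was 1.34 for Srxn1, 1.12 for Hmox1 and 1.04 for Gclm. For Mt1, Txnrd1, G6pdx, Gclc and Mt2 it ran from -0.41 to 0.34. Of the 8 genes highest in replicate 2 within bilCLiP 2D, Nqo1, Hmox1, Gclm and Srxn1 were also highest in replicate 2 within bilCLiP 3D. Mt1 and Slc7a11 were not, and Txnrd1 and G6pdx were lowest there. The order of the 3 replicates was the same in both bilCLiP cultures for 2 of 10 genes, beside 29.1% of all genes tested.

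**Figure D3:**
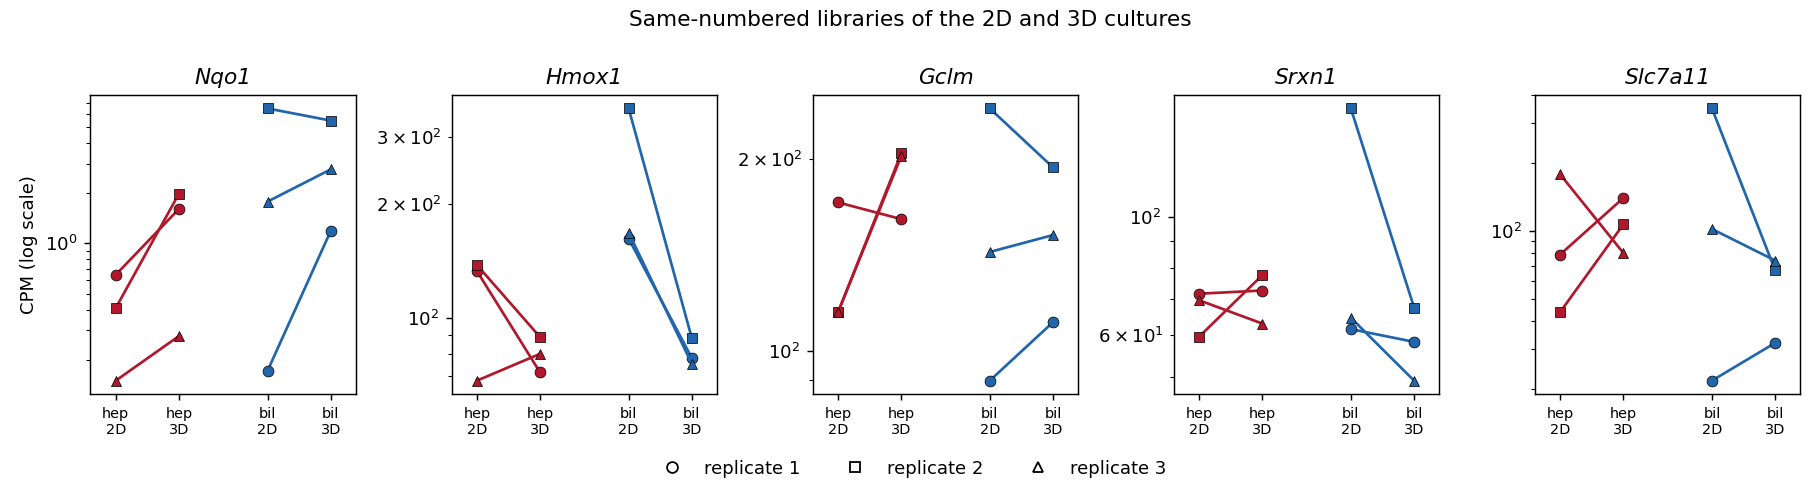
Levels of Nqo1, Hmox1, Gclm, Srxn1 and Slc7a11 in CPM on a log axis, with lines joining same-numbered 2D and 3D libraries of hepCLiP (red) and bilCLiP (blue). The square of bilCLiP 2D is replicate 2, at 6.45, 358, 240, 160 and 349 CPM, the top of each panel.

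Profiles were compared over the 12 libraries as the root mean square difference of centred log2(CPM + 1), a description with no test. The genes described here and gene models without a name were left out as candidates. Closeness between the genes described here, such as Mt1 and Mt2, therefore could not appear. Nearest to Mt1 were Abca8b (0.313), C8g (0.338) and Acaa2 (0.339), and nearest to Mt2 was Acsm5 (0.252). Gclc lay nearest to Smad3 (0.249) and Dglucy (0.282), and Txnrd1 to Nup62 (0.137). Gclm lay nearest to Abcc2 (0.194), Hmox1 to Car9 (0.303), Srxn1 to Smcr8 (0.232) and G6pdx to Elk3 (0.308). Slc7a11 lay nearest to Il22ra1 (0.55) and Trib3 (0.61), and Nqo1 to Flvcr2 (0.439). These differences grow with the spread of the gene itself, which was 1.02 for Slc7a11 and 0.394 for Srxn1. They therefore do not rank the genes by how well their profiles were matched.

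Of the regulators of NRF2, 1 of 12 genes was higher and 1 lower in hepCLiP 3D, with 1 higher and 2 lower in bilCLiP 3D. Over all genes tested, 16.9% were higher and 17.9% lower in hepCLiP 3D, and 15.8% and 14.5% in bilCLiP 3D. Nfe2l2 itself was at 208, 174 and 254 CPM in hepCLiP 2D and 85.9, 89.6 and 113 CPM in hepCLiP 3D, without overlap, and fell by 1.14 ± 0.206 on the log2 scale (adjusted p = 0.00191). The bilCLiP libraries had 190, 246 and 268 CPM in 2D and 182, 125 and 137 CPM in 3D, also without overlap, and fell by 0.67 ± 0.204 (adjusted p = 0.0301). The bilCLiP call was lost when replicate 2 (-0.63) or 3 (-0.56) of 2D or replicate 2 (-0.56) or 3 (-0.61) of 3D was left out, with adjusted p from 0.0787 to 0.111.

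Keap1 differed by 0.64 ± 0.294 in hepCLiP (adjusted p = 0.117) and 0.38 ± 0.294 in bilCLiP (adjusted p = 0.369). With same-numbered libraries as a block it passed in both, at 0.64 (adjusted p = 0.00273) and 0.36 (adjusted p = 0.032). Bach1, a repressor that competes with NRF2 at AREs, rose by 1.37 ± 0.258 in hepCLiP (adjusted p = 0.00242) and by 0.94 ± 0.255 in bilCLiP (adjusted p = 0.0179), the latter call being lost without bilCLiP 3D replicate 2 (0.89) or 3 (0.85). Maff, a small MAF protein, fell by 1.55 ± 0.359 in bilCLiP (adjusted p = 0.00863), beside -0.99 ± 0.354 in hepCLiP (adjusted p = 0.0508, or 0.0197 with the block).

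Zinc handling genes beside Mt1 and Mt2 had 4 of 8 higher and 1 lower in hepCLiP 3D, and 3 higher and 1 lower in bilCLiP 3D. Shares of all genes tested were 16.9% higher and 17.9% lower in hepCLiP, and 15.8% and 14.5% in bilCLiP. Slc30a1, the zinc exporter of the plasma membrane and an MTF1 target, was at 37.8, 35.4 and 35.6 CPM in hepCLiP 2D and 135, 163 and 80.4 CPM in hepCLiP 3D, a log2 rise of 1.80 ± 0.236 (adjusted p = 0.000369). For bilCLiP the values were 26.3, 30.6 and 29.1 CPM in 2D and 54.5, 81.5 and 76.1 CPM in 3D, a rise of 1.30 ± 0.234 (adjusted p = 0.0022). Slc39a14, a zinc and iron importer, rose by 2.21 ± 0.287 and 2.26 ± 0.288, with adjusted p = 0.00035 and 0.000357 in edgeR's test. Slc39a10, another zinc importer, fell by 2.04 ± 0.435 and 1.92 ± 0.431.

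Slc30a10, a manganese exporter, rose by 6.12 ± 0.652 on the log2 scale in hepCLiP. In bilCLiP it had 3 counts in 2D and 134 in 3D, a ratio of 63.5 (95% exact interval 21.3 to 312, for counting error only). Mt4, a metallothionein of squamous epithelia, had 0 counts in all 2D libraries and 2.05, 21.9 and 1.25 CPM in hepCLiP 3D, at least 179-fold higher against a floor of 3 counts over the group, or 34.8-fold without replicate 2. That call (adjusted p = 0.0362) was lost without any 1 of hepCLiP 2D replicates 1, 2 and 3, hepCLiP 3D replicates 1 and 2 and bilCLiP 3D replicate 2, with adjusted p up to 0.0813. Mt4 in bilCLiP 3D was at 0, 1.26 and 7.95 CPM, at least 75.4-fold higher, or 15.9-fold without replicate 3 (adjusted p = 0.0632 with all libraries, or 0.00511 with the block).

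Other NRF2 targets split in direction, with 8 of 30 higher and 7 lower in hepCLiP 3D and 11 higher and 7 lower in bilCLiP 3D. Beside them, 16.9% of all genes were higher and 17.9% lower in hepCLiP, and 15.8% and 14.5% in bilCLiP. The median log2 difference of these targets was 0.12 in hepCLiP and 0.15 in bilCLiP. Gsr, Me1, Fth1, Ftl1 and Blvrb are in this list and are counted again in the glutathione, NADPH or heme and iron lists. The lists are therefore not separate sets of genes. Abcc4, an organic anion exporter, fell by 2.78 ± 0.273 (adjusted p = 9.96e-05) in hepCLiP and by 2.7 ± 0.273 (adjusted p = 0.000112) in bilCLiP. Gsta4, a glutathione transferase for lipid aldehydes, fell by 2.25 ± 0.327 and 2.01 ± 0.324, and Osgin1, an oxidative stress-induced growth inhibitor, by 1.60 ± 0.233 and 1.64 ± 0.233. The transferase Gstm1 rose by 3.74 ± 0.601 and 5.68 ± 0.66, and Gstm3 by 4.85 ± 1.08 and 9.19 ± 1.37. Gstm and Gsta genes have near-identical copies between which reads can be split, so their values are uncertain. Blvrb, biliverdin reductase B, rose by 2.87 ± 0.607 and 2.83 ± 0.602.

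Antioxidant enzymes had 10 of 26 genes higher and 0 lower in hepCLiP 3D, and 7 higher and 3 lower in bilCLiP 3D, with medians of 0.61 and 0.62. In either direction, 34.7% of all genes were called in hepCLiP (16.9% higher, 17.9% lower) and 30.3% in bilCLiP (15.8% higher, 14.5% lower). Msrb1, a selenoprotein that repairs oxidised methionine, rose by 2.00 ± 0.197 in hepCLiP (adjusted p = 9.96e-05) and by 2.05 ± 0.197 in bilCLiP (adjusted p = 8.76e-05). Msra, which repairs the other methionine sulfoxide form, rose by 1.67 ± 0.261 and 1.80 ± 0.263. The mitochondrial superoxide dismutase Sod2 rose by 1.12 ± 0.244 and 1.15 ± 0.245. The 3 lower genes in bilCLiP each lost their call when some libraries were left out. Gpx8, a peroxidase of the endoplasmic reticulum, fell by 3.14 ± 0.895 (adjusted p = 0.0224), a call lost without bilCLiP 2D replicate 1 (-1.79) or replicate 2 (-2.92) or 3 (-3.10) of 3D. Sesn2, a stress-induced sestrin, fell by 1.08 ± 0.281 (adjusted p = 0.0148), lost without those same 3 libraries (-0.83, -1.01 and -1.02). Prdx2, a cytosolic peroxiredoxin, fell by 0.51 ± 0.165 (adjusted p = 0.0377), lost in 8 of the 12 fits that left out 1 library.

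The glutathione and cysteine supply list had 8 of 16 genes higher and 1 lower in hepCLiP 3D and 9 higher and 1 lower in bilCLiP 3D. Medians of the list were 1.42 and 1.18. Among all genes tested, 16.9% were higher and 17.9% lower in hepCLiP, and 15.8% and 14.5% in bilCLiP. Mat1a, the methionine adenosyltransferase of liver, rose by 7.32 ± 1.08 and 7.74 ± 1.18. Gnmt, a methyltransferase of the same cycle, rose by 6.27 ± 0.745 and 6.65 ± 0.77, and Cbs, which commits homocysteine to cysteine, by 3.60 ± 0.265 and 3.37 ± 0.262. Ggt1, a gamma-glutamyltransferase that cleaves extracellular glutathione, rose by 4.09 ± 1.41 in bilCLiP (adjusted p = 0.0498), a call lost in 9 of 12 fits that left out 1 library, and was at 3.13 ± 1.37 in hepCLiP (adjusted p = 0.1, or 0.000604 with the block). The lower gene was Gsr, glutathione reductase, which fell by 1.27 ± 0.342 (adjusted p = 0.0154) and 1.30 ± 0.343 (adjusted p = 0.0158). Its hepCLiP call was lost when replicate 2 of 2D (-1.12) or replicate 1 (-1.18) or 3 (-1.15) of 3D was left out, and its bilCLiP call without replicate 2 of 2D (-0.78) or 1 of 3D (-1.13).

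For NADPH supply, 1 of 12 genes was higher and 2 lower in hepCLiP 3D, and 2 higher and 3 lower in bilCLiP 3D. The shares over all genes were 16.9% higher and 17.9% lower in hepCLiP, and 15.8% and 14.5% in bilCLiP. Me1, the cytosolic malic enzyme, fell by 1.43 ± 0.184 (adjusted p = 0.000342) and 1.77 ± 0.186 (adjusted p = 0.00013). H6pd, the counterpart of G6PDX in the endoplasmic reticulum, rose by 0.95 ± 0.205 in hepCLiP (adjusted p = 0.00488) and by 0.72 ± 0.204 in bilCLiP (adjusted p = 0.0224). The bilCLiP call was lost without replicate 1 (0.73) or 2 (0.66) of 2D or 1 (0.60) or 3 (0.74) of 3D.

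Heme and iron storage genes had 6 of 15 higher and 1 lower in each origin. All genes tested had 16.9% higher and 17.9% lower in hepCLiP 3D, and 15.8% and 14.5% in bilCLiP 3D. Alas1, the first enzyme of heme synthesis, rose by 1.23 ± 0.188 in hepCLiP and 0.90 ± 0.187 in bilCLiP, and Alad, the next, by 1.09 ± 0.241 and 1.47 ± 0.242. The ferritin heavy chain Fth1 rose by 1.56 ± 0.385 in hepCLiP (adjusted p = 0.00988) and by 1.24 ± 0.382 in bilCLiP (adjusted p = 0.0308). The light chain Ftl1 fell by 0.68 ± 0.192 in hepCLiP (adjusted p = 0.0191) and by 0.89 ± 0.193 in bilCLiP (adjusted p = 0.00603). The bilCLiP call of Fth1 was lost without replicate 1 (1.00) or 3 (1.16) of 2D or 2 (1.08) or 3 (1.19) of 3D, and the hepCLiP call of Ftl1 without replicate 1 of 2D (-0.53) or 2 (-0.67) or 3 (-0.61) of 3D. Ferritin genes have many processed copies, so their counts are uncertain. With scaling by library totals only, the calls of Alad (0.52) and Sod2 (0.53) and H6pd (0.37) in hepCLiP and of Alas1 (0.41), Bach1 (0.47), H6pd (0.25), Fth1 (0.76) and Ggt1 (3.58) in bilCLiP were lost.

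ATF4 shares Slc7a11 with NRF2 as a target. The ATF4 list has 14 genes and holds Atf4 itself beside its targets. Of these 14, 4 were higher and 1 lower in hepCLiP 3D, and 2 higher and 3 lower in bilCLiP 3D. Across all genes tested these shares were 16.9% and 17.9% in hepCLiP, and 15.8% and 14.5% in bilCLiP. Nupr1, a stress-induced chromatin protein, rose by 3.86 ± 0.847 in hepCLiP (adjusted p = 0.00554) and by 2.92 ± 0.808 in bilCLiP (adjusted p = 0.0198), the latter call being lost without replicate 3 of 2D (3.06) or of 3D (2.45). Psat1 and Phgdh, enzymes of serine synthesis, moved in opposite directions: Psat1 rose by 1.41 ± 0.287 and 1.39 ± 0.287, while Phgdh fell by 1.60 ± 0.245 and 1.29 ± 0.243. The called genes with the largest changes in these lists, up to 3 per direction, were pooled over the comparisons, and Nfe2l2 and Keap1 were added. Of the pooled genes called in an origin, 26 of 31 in hepCLiP and 24 of 39 in bilCLiP kept their call in all 12 fits that left out 1 library. As they were picked for large changes in these data, these counts do not describe called genes in general. With only the 2 groups compared in the fit, the calls of Ftl1 (-0.65) in hepCLiP and of Gsr (-1.30), Fth1 (1.24) and Nupr1 (2.92) in bilCLiP were lost, and without the filter on low counts those of Mt4 in hepCLiP and of Nupr1 (2.88), Prdx2 (-0.55) and Ggt1 (4.05) in bilCLiP. With RosaYFP cultures only, the hepCLiP calls of Nfe2l2 (-0.96), Bach1 (1.63), Slc39a14 (2.09), Gsta4 (-2.01), Blvrb (2.82), Sod2 (1.31), Mat1a (7.21), Gnmt (6.33), Psat1 (2.01) and Phgdh (-1.14) were among those lost. No gene of any of these 8 lists was called between origins, or for the difference of the culture effects, by edgeR.

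**Figure D4:**
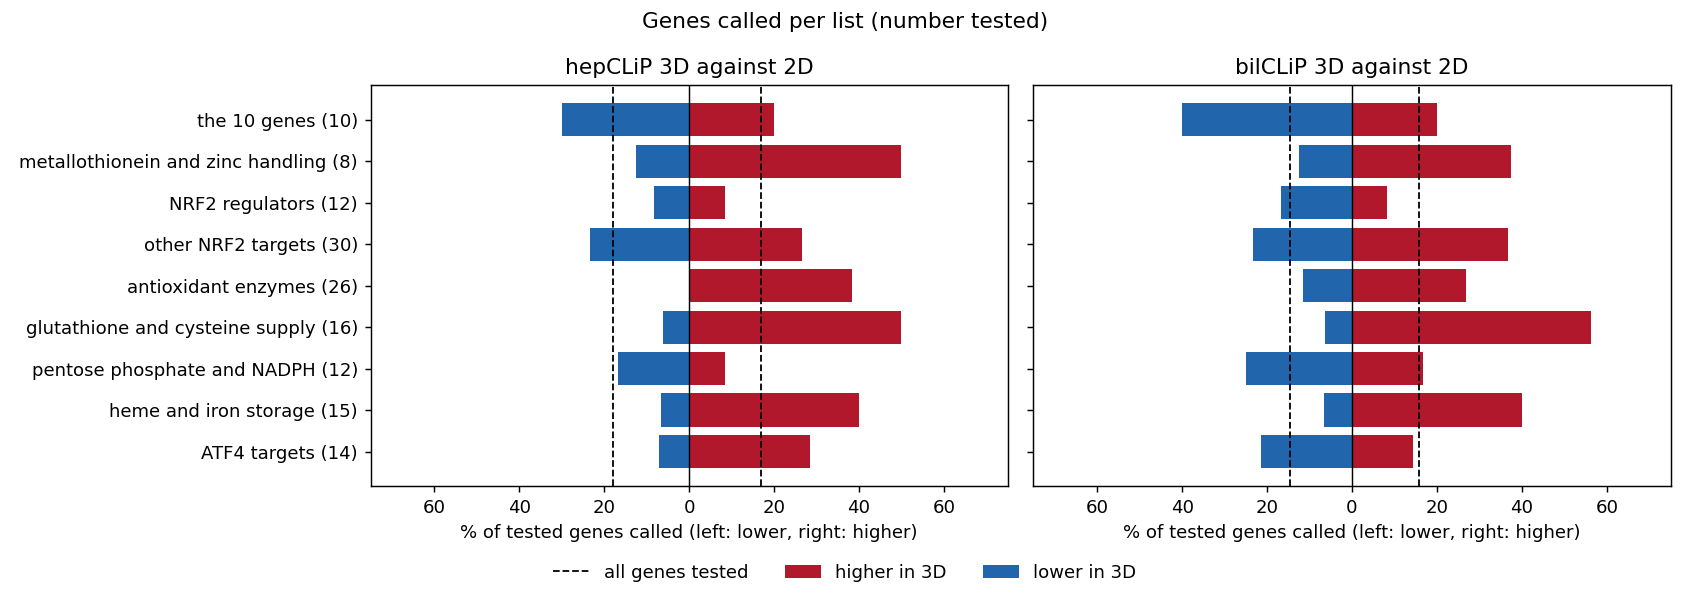
Share of tested genes called higher (red, right) or lower (blue, left) in 3D for each list, in percent, for hepCLiP and bilCLiP, with the share among all genes tested as dashed lines. Among the 26 antioxidant enzymes in hepCLiP, 10 are higher and 0 lower, while the 30 other NRF2 targets have bars on both sides.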

How the data were processed

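Gene counts and normalized counts were deposited by the authors. Per the submitters' processing notes, reads were processed with STAR 2.7.10b, featureCounts 2.0.1 and DESeq2 (no version) on GRCm39; the sources used here do not name the strand setting or annotation. The deposited normalized signal equals the counts of each library divided by a constant.

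Counts were fitted in R 4.3.3 with edgeR 4.0.16: filterByExpr, TMM scaling, robust quasi-likelihood fit, 4 group means over 12 samples and 5 contrasts, with calls at p under 0.05 after Benjamini-Hochberg adjustment. Adjusted p-values without another tool named come from it. CPM uses TMM library sizes, and SE is the log2 fold change over the root of F. Alternatives were DESeq2 1.42.0, other scalings, no filter, limma 3.58.1 on the normalized table, a replicate block, the 2 groups compared, RosaYFP only, and each library left out. The script was tested on simulated data.

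The 10 genes and the lists were chosen with earlier results of these data known. From each list, up to 3 called genes per direction with the largest change were eligible to be named, plus Nfe2l2 and Keap1. Same-numbered libraries of 1 origin deviated together (r from 0.432 to 0.513), so numbers pair libraries within an origin. Across origins r was 0.0218 to 0.15. The main fit, and the counts per list taken from it, did not use this pairing. The replicate block did so for the culture comparisons. In hepCLiP, replicate 2 differed in genotype from replicates 1 and 3, so these were not all from 1 animal. Whether the replicates are otherwise separate animals is not labelled. The p-values then reflect the spread among samples alone, which may be technical. Counts of replicates differed by 58.1 to 202 in chi-square per degree of freedom, more than counting error alone gives. Exon lengths are from GENCODE M21.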

Additional observations from a re-analysis of the deposited data

How the results depend on the processing

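Of the 10 genes, the number called in hepCLiP 3D against 2D was 5, with 4 to 5 when 1 library was left out and 2 with RosaYFP cultures only, where fewer samples were tested. In bilCLiP it was 6, with 5 to 8. Between origins in 3D it was 1 with DESeq2. A replicate block kept 5 and 6 calls and 0 in the other comparisons, changing no call of the 10 genes, while the genes called rose from 5139 to 6973 in hepCLiP and from 4485 to 6383 in bilCLiP, from 20 to 62 between origins in 2D and from 15 to 44 in 3D. Scaling by library totals only moved the median of all genes by -0.57 in hepCLiP and -0.47 in bilCLiP. The share of calls that were higher then went from 48.6% to 16.3% and from 52.1% to 19.9%, and 7915 and 6763 genes were called. Hmox1 in hepCLiP then passed at -1.07 and Srxn1 in bilCLiP at -1.18. RosaYFP cultures gave 769 calls in hepCLiP. DESeq2 called 459 genes between origins in 2D, 577 in 3D and 12 for the difference; limma called 38 and 26, and the 2 groups alone 5 and 3. With 1 library left out, 6 to 31 genes were called in 2D, 3 to 251 in 3D and 0 to 3 for the difference.

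Sign changes fell only on values that did not pass the test, and their cause was not tested. With library totals they were Gclm (-0.07), Srxn1 (-0.49) and Slc7a11 (-0.46) in hepCLiP, Nqo1 (-0.33) in bilCLiP and Gclc (0.16) between origins in 3D, where upper quartile scaling gave 0.06. Gclm in bilCLiP was 0.02 with the replicate block. RosaYFP cultures gave -0.30 for Mt1 in 2D, -0.15 for Hmox1 and -0.36 for G6pdx in 3D, and -0.20 for Txnrd1 and -0.40 for G6pdx for the difference. DESeq2 and RLE each gave -0.03 for Hmox1 in 3D and -0.04 for the G6pdx difference, and no filter gave 0.00 and -0.03. With 1 library left out, values ran from -0.33 to 0.38 (Gclm) and -0.49 to 1.69 (Nqo1) in bilCLiP, and from -0.23 to 0.83 (Slc7a11) in hepCLiP. Between origins in 2D they ran from -0.05 to 0.39 (Gclc), -0.20 to 0.52 (Gclm), -0.10 to 0.29 (Mt1), -0.70 to 1.36 (Slc7a11) and -0.09 to 0.74 (Srxn1). In 3D they ran from -0.54 to 0.17 (Gclc), -0.09 to 0.08 (Hmox1) and -0.42 to 0.12 (Mt1). For the difference they ran from -0.30 to 0.64 (G6pdx), -0.75 to 0.02 (Gclc), -0.52 to 0.05 (Mt1) and -2.16 to 0.03 (Nqo1). Counts of 3 to 166 for Nqo1 and 7 to 422 for Mt2 limit their precision.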
